A study of Mus musculus with 12 samples.

Results

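The brush border scaffold genes described here are Pdzk1, Slc9a3r1, Pdzk1ip1, Vil1, Ezr, Cdhr2, Cdhr5 and Myo7b. They were picked by name, 8 of 41740 genes listed in the deposited tables, and all 8 reached the minimum of 10 counts summed over the 12 libraries that left 13536 genes for testing. Kidneys came from WT male mice of the C57BL/6NCrl strain, whose age is not given in the sources used here. The RIAKI group (rhabdomyolysis-induced acute kidney injury, 6 kidneys) received 50% glycerol into the muscle of the left hind limb, which breaks down muscle fibres, and the sham group (6 kidneys) received saline at the same site. Both groups had gone 19 h without drinking water, were injected under isoflurane and received the analgesic Rimadyl at 5 mg/kg at the start and again some hours later, so that thirst, anaesthesia and analgesic were common to both. Kidneys were taken at 24 h and each gave 1 library of transcript ends (QIAseq UPX 3′), in which each RNA molecule was counted once by its molecular identifier.

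The apical surface of the proximal tubule is folded into densely packed microvilli, the brush border, which carries the transporters and enzymes that recover filtered solutes. Each microvillus holds a core of actin filaments bundled by villin, the product of Vil1, and ezrin, the product of Ezr, ties this core to the membrane. The PDZ proteins NHERF1 (Slc9a3r1) and PDZK1 (Pdzk1) bind the tails of transporters and hold them in place, and NHERF1 is itself anchored by ezrin. PDZK1IP1, also named MAP17, is a small membrane protein that binds PDZK1. The protocadherins CDHR2 and CDHR5 link the tips of neighbouring microvilli, and MYO7B, an unconventional myosin, carries this adhesion complex to the tips.

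Of the 8 genes, 5 were lower in RIAKI than in sham kidneys (Pdzk1, Pdzk1ip1, Cdhr5, Cdhr2 and Slc9a3r1), 1 was higher (Ezr), and Vil1 and Myo7b did not pass the test. For comparison, 36.3% of all 13536 genes tested passed the same test, 18.8% as lower and 17.4% as higher. These shares are also the comparison for the gene lists below. The changes of the scaffold genes spread widely, with log2 fold changes of RIAKI over sham between −2.50 for Pdzk1 and 1.05 for Ezr. Their median was −0.80, and the median over all genes tested was −0.01. The RIAKI and sham ranges did not overlap in 5 of the 8 genes (Pdzk1, Pdzk1ip1, Ezr, Cdhr2 and Cdhr5), which was also true of 19.3% of all genes tested. Levels are CPM, the counts after TMM scaling of each library, and tests are edgeR's quasi-likelihood test with p-values adjusted after Benjamini and Hochberg over all genes tested, with a threshold of 0.05. The counts come from the ends of transcripts and were not divided by length, so the level of one gene was not compared with that of another.

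**Figure D1:**
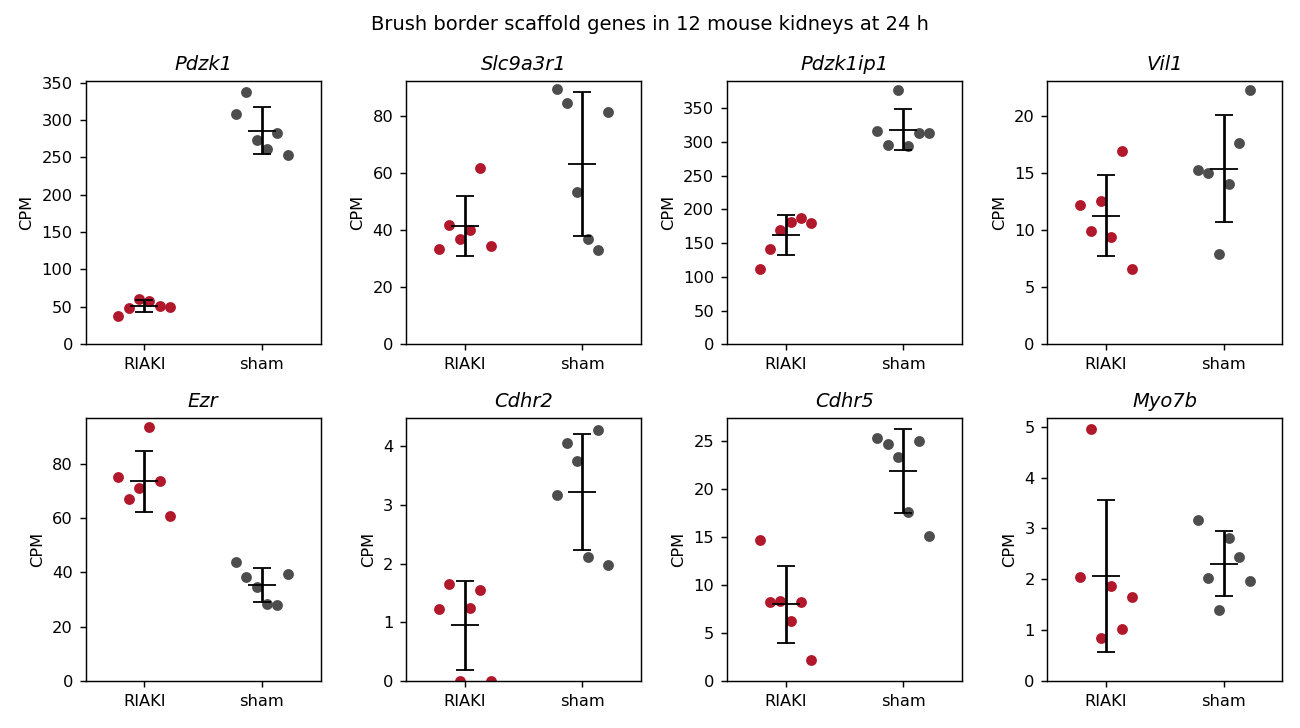
Levels of the 8 scaffold genes in CPM (y axis, from 0, a separate scale for each gene) in 6 RIAKI and 6 sham kidneys. Points are libraries and bars give the mean and SD. Pdzk1 lay between 38.3 and 61.1 CPM in RIAKI and between 253 and 337 CPM in sham kidneys, Ezr is the gene with all RIAKI points above the sham points, and the groups overlap for Slc9a3r1, Vil1 and Myo7b.

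Total counts were between 1579157 and 1911871 in RIAKI libraries and between 1673329 and 2073959 in sham libraries. Mitochondrial ribosomal RNA took 34.1% to 58.9% of them in RIAKI and 36.6% to 52.7% in sham kidneys. Genes outside the mitochondrial genome had 518533 counts in the poorest RIAKI library and 672301 in the poorest sham library. Markers of the proximal tubule were present in both groups and mostly lower in RIAKI: 15 of 16 were lower and 0 were higher, with summed levels of 900 to 1280 CPM in RIAKI and 3798 to 4391 CPM in sham kidneys. In whole kidney RNA, fewer cells of a type and less RNA per cell cannot be told apart. The labels give each kidney a group and a number and do not state that each came from a separate mouse, so the p-values measure the spread between these kidneys.

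Promoter sequences are shown for Pdzk1, the gene that fell most, for Ezr, the gene that rose, and for Cdhr2, whose window held a liver and kidney factor motif. They are RefSeq windows on GRCm38.p6, reaching from 250 bases before to 50 bases after the annotated start, and 7 of the 8 genes had at least 1 such window (8 windows in all, 2 of them for Pdzk1). Capitals mark matches on either strand to an HNF4 site (CAAAGTCCA), an HNF1 motif (GTTAAT) or an AP-1 site (TGANTCA), and none of these matches overlapped another. The Pdzk1 window lies at chr3:96829815-96830114 on the plus strand, the Ezr window at chr17:6782731-6783030 on the minus strand and the Cdhr2 window at chr13:54701213-54701512 on the plus strand.
Pdzk1: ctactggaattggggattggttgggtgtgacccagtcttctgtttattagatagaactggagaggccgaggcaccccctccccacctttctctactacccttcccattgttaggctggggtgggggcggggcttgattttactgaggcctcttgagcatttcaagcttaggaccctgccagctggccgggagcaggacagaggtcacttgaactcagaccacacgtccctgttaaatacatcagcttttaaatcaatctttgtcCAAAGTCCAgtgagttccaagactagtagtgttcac
Ezr: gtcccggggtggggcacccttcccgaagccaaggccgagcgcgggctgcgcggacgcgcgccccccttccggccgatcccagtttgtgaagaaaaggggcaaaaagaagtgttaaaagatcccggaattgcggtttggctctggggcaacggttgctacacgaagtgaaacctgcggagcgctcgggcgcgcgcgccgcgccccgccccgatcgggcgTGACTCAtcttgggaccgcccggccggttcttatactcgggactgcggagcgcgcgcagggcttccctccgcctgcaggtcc
Cdhr2: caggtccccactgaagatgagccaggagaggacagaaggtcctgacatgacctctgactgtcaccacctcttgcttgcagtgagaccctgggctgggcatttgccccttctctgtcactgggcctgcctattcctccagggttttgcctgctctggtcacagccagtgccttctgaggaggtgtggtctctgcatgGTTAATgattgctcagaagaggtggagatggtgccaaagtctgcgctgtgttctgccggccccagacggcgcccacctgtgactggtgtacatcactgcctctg
The HNF4 site of Pdzk1 began 14 bases after the start and was found in 0.475% of 32851 promoter windows of the same length. The AP-1 site of Ezr began 32 bases before the start (7.81% of all windows), and the HNF1 motif of Cdhr2 began 54 bases before it (7.10% of all windows). No match to these 3 motifs was found in the other Pdzk1 window or in those of Slc9a3r1, Pdzk1ip1, Vil1 and Cdhr5. GC boxes (GGGCGG) were found in the windows of Slc9a3r1 (4), Ezr (2), Vil1 (1) and Pdzk1 (1, in the window shown). CCAAT boxes (CCAAT) were found in those of Slc9a3r1 (3) and Pdzk1 (2 in the window shown and 1 in the other). At least 1 match was found in 35.7% of all windows for the GC box and in 37.4% for the CCAAT box. A match describes the letters only, and reads from the ends of transcripts do not show which start was used.

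Among the PDZ scaffolds, Pdzk1 fell furthest. The gene (ENSMUSG00000038298) lies on chromosome 3 of GRCm38 from 96829284 to 96870926 on the plus strand, and PDZK1 holds phosphate, urate and other transporters in the brush border. Its level was 38.3 CPM in the lowest RIAKI kidney, 49.8 at the median and 61.1 in the highest, against 253, 278 and 337 CPM in sham kidneys. Every RIAKI kidney was therefore far below every sham kidney, and the spread within each group was small (CV 15.9% in RIAKI and 11.03% in sham). The group means were 50.8 ± 8.08 CPM in RIAKI and 286 ± 31.5 CPM in sham (SD, n = 6 each), from 534 and 3216 counts. This gave a log2 fold change of −2.50 (SE 0.15, 95% interval −2.80 to −2.20, adjusted p = 3.10e-14, edgeR's quasi-likelihood test), and 2.26% of all genes tested had a lower one.

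The intron reads of Pdzk1, which the exon count leaves out, were lower in RIAKI as well. They numbered 25 in RIAKI and 144 in sham, 2.38 ± 1.18 CPM in RIAKI and 12.7 ± 5.68 CPM in sham (SD, n = 6 each). Reads across its exon junctions, which are part of the exon count, gave 6.12 ± 2.71 CPM in RIAKI and 30.6 ± 3.99 CPM in sham. The groups overlapped in neither, and the intron share of the exon count was similar, 4.68% in RIAKI and 4.48% in sham. The genes of Gpr89 and Pdzk1 overlap by 2646 bases on opposite strands, and whether strand was used in counting is not stated. Gpr89 had 151 counts in RIAKI and 149 in sham, equal to 28.3% of the Pdzk1 count in RIAKI and 4.63% in sham.

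Slc9a3r1 (ENSMUSG00000020733, chromosome 11 of GRCm38, 115163341 to 115181181, plus strand) encodes NHERF1, which binds the sodium-phosphate cotransporter and the parathyroid hormone receptor. It was lower in RIAKI by a smaller amount, with 33.4, 38.4 and 61.8 CPM as the lowest, median and highest RIAKI values, against 32.96, 67.4 and 89.2 CPM in sham. All 6 RIAKI values lay inside the sham range. The means were 41.4 ± 10.5 CPM in RIAKI and 63.0 ± 25.2 CPM in sham (SD, n = 6 each), and the log2 fold change was −0.61 (SE 0.21, 95% interval −1.05 to −0.18, adjusted p = 0.0222, edgeR's quasi-likelihood test). This call did not hold throughout. The adjusted p of the Slc9a3r1 log2 fold change was 0.0577 without RIAKI 1, 0.0779 without sham 1, 0.0727 without sham 2 and 0.0617 without sham 6, and 0.0893 with total counts as the only scaling.

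The sham values of Slc9a3r1 spread widely, and the lowest came from the sham libraries with the most mitochondrial ribosomal RNA. Sham kidneys 1, 2 and 6 had 89.2, 84.5 and 81.4 CPM at 43.5%, 36.6% and 45.9% of mitochondrial ribosomal RNA, and sham 3 had 53.4 CPM at 40.2%. Sham kidneys 4 and 5, with 36.7 and 32.96 CPM, had the highest shares of that RNA in their group, 51.7% and 52.7%. In RIAKI the level did not follow that share in the same way: RIAKI 3, at 58.9%, had 36.8 CPM, and RIAKI 1, at 34.1%, had 33.4 CPM. In the 9 libraries with at most 50% of mitochondrial ribosomal RNA, a choice made after the values had been seen, the Slc9a3r1 log2 fold change was −0.86 (adjusted p = 0.00123, edgeR's quasi-likelihood test). This limit leaves out sham 4 and 5, the lowest sham values, and RIAKI 3. A larger fall was thus built into the choice, and its p-value is not read as support for the call. The part of library composition in the Slc9a3r1 result was not tested further.

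**Figure D2:**
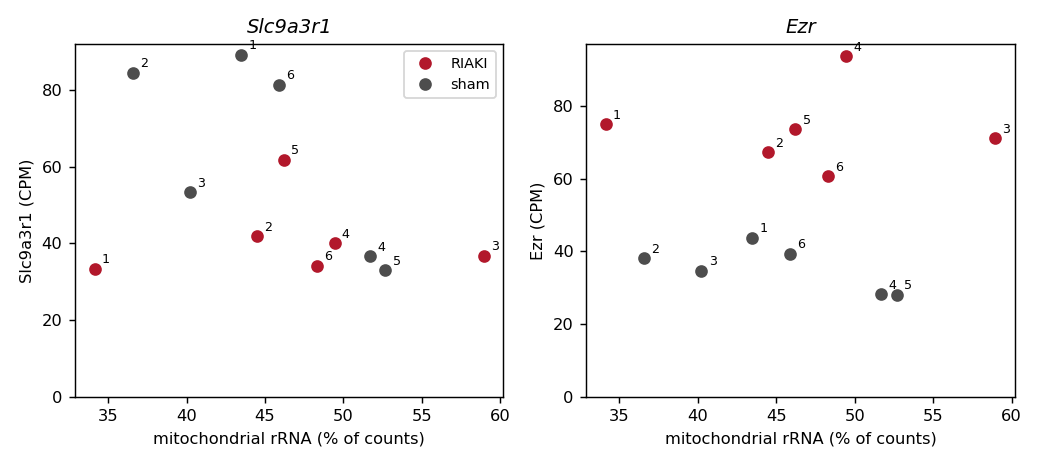
Levels of Slc9a3r1 (left) and Ezr (right) in CPM (y axes) against the percentage of counts from mitochondrial ribosomal RNA (x axes), 1 point per kidney with its replicate number, RIAKI in red and sham in grey. Sham 4 and 5, at 51.7% and 52.7%, had the lowest sham values of both genes, 36.7 and 32.96 CPM for Slc9a3r1 and 28.2 and 28.1 CPM for Ezr, and all RIAKI values of Ezr lay above the sham values along the whole axis.

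Pdzk1ip1 (ENSMUSG00000028716, chromosome 4 of GRCm38, 115088708 to 115093899, plus strand) encodes the PDZK1 partner MAP17, which also activates the glucose transporter SGLT2. Its values were 112, 174 and 188 CPM as the lowest, median and highest in RIAKI, against 294, 314 and 377 CPM in sham. The groups did not overlap. The means were 162 ± 29.6 CPM in RIAKI and 318 ± 30.5 CPM in sham (SD, n = 6 each), with a log2 fold change of −0.98 (SE 0.14, 95% interval −1.27 to −0.69, adjusted p = 2.22e-06, edgeR's quasi-likelihood test). Junction reads, a part of the exon count with 162 in RIAKI and 316 in sham, did not overlap between the groups either.

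Whether the PDZ genes changed by the same amount was tested on the ratio of CPM within each library. The ratio of Pdzk1ip1 to its binding partner Pdzk1 was between 2.77 and 3.72 in RIAKI and between 0.877 and 1.38 in sham, a difference of 1.51 on the log2 scale (exact permutation test, 2-sided, p = 0.00216, 0.00433 adjusted over 6 ratios). The ratio of Slc9a3r1 to Pdzk1 was between 0.603 and 1.22 in RIAKI and between 0.117 and 0.321 in sham, a log2 difference of 1.97 with the same exact permutation p-values. So Pdzk1 fell more than both other genes, and in each ratio all 6 RIAKI kidneys were above all 6 sham kidneys. A p of 0.00216 is the smallest that 6 against 6 kidneys can give.

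**Figure D3:**
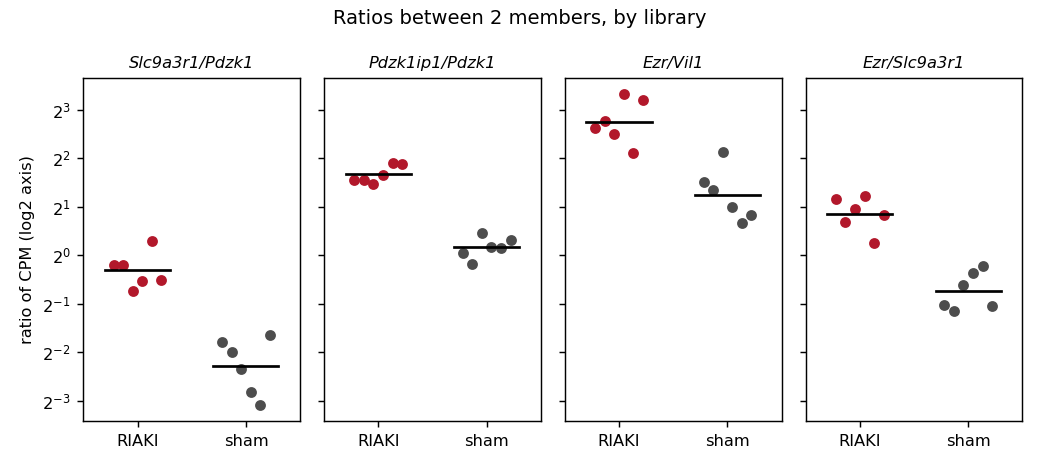
Ratios of the CPM of paired scaffold genes in each library (y axis, log2 scale), RIAKI left and sham right in each panel, with the mean of the log2 ratios as a line. The groups are apart for Slc9a3r1/Pdzk1, Pdzk1ip1/Pdzk1 and Ezr/Slc9a3r1 and overlap slightly for Ezr/Vil1.

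Ezr (ENSMUSG00000052397, chromosome 17 of GRCm38, 6738041 to 6782784, minus strand) was the scaffold gene that rose. Ezrin is the membrane and actin linker of the brush border, and it is also found in podocytes and in other epithelia. Ezr had 60.7, 72.4 and 93.7 CPM as its lowest, median and highest values in RIAKI, against 28.1, 36.4 and 43.8 CPM in sham. The highest sham kidney was thus below the lowest RIAKI kidney. The means were 73.6 ± 11.1 CPM in RIAKI and 35.4 ± 6.33 CPM in sham (SD, n = 6 each), and the log2 fold change was 1.05 (SE 0.15, 95% interval 0.74 to 1.36, adjusted p = 1.75e-06, edgeR's quasi-likelihood test). Junction reads, again part of that count, numbered 32 in RIAKI and 12 in sham and did not overlap between the groups, whereas intron reads, 23 in RIAKI and 20 in sham, did.

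Other cell types that can hold ezrin were looked at through their markers. Of 6 podocyte markers, 1 (Nphs1) was higher and 0 were lower, and their summed level was 56.1 to 84.4 CPM in RIAKI and 25.6 to 46.0 CPM in sham, most of it from Nphs1 in RIAKI (48.6 CPM, against 11.3 in sham). The other podocyte markers of the list, among them Podxl, Synpo, Wt1 and Ptpro, did not pass the test. Of 6 leukocyte markers tested, 4 were higher and 1 was lower, with summed levels over the list of 28.8 to 64.4 CPM in RIAKI and 6.57 to 13.1 CPM in sham, Ly6g had no count in any kidney, and the general leukocyte marker Ptprc had means of 2.27 CPM in RIAKI and 2.05 CPM in sham. Of 10 injured tubule markers, 9 were higher and 0 were lower, with summed levels of 4669 to 6468 CPM in RIAKI and 461 to 529 CPM in sham. Their part in the rise of Ezr was not tested.

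Within the group of ERM proteins, to which ezrin belongs, the genes went different ways. Msn, the gene of moesin, was higher (53.5 ± 9.47 CPM in RIAKI and 18.9 ± 4.53 CPM in sham, SD, n = 6 each, log2 fold change 1.51, SE 0.18). Rdx, the gene of radixin, was lower by 0.43 on the log2 scale (79.8 ± 11.4 CPM in RIAKI and 107 ± 9.55 CPM in sham), and its groups overlapped. Ezr also changed by a different amount than its anchor partner. The ratio of Ezr to Slc9a3r1 was 1.19 to 2.34 in RIAKI and 0.452 to 0.852 in sham, a log2 difference of 1.59 (exact permutation test, 2-sided, p = 0.00216, 0.00433 adjusted over 6 ratios). The rise of Ezr alone shifts this ratio, and the call of Slc9a3r1 as lower did not hold throughout. Within the 6 sham kidneys the log2 levels of Ezr and Slc9a3r1 nonetheless moved together (Pearson r = 0.97), and within the 6 RIAKI kidneys less so (r = 0.16). Both genes share each library's depth and composition, and this is given as a description.

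Vil1 (ENSMUSG00000026175, chromosome 1 of GRCm38, 74409376 to 74435559, plus strand) encodes villin, which bundles and severs actin and marks the brush border in histology. Its values were 6.62, 11.1 and 17.0 CPM as the lowest, median and highest in RIAKI, against 7.96, 15.2 and 22.3 CPM in sham, so that the groups largely overlapped. The log2 fold change was −0.42 (SE 0.24, 95% interval −0.91 to 0.06, adjusted p = 0.169, edgeR's quasi-likelihood test), an interval that reaches from a fold of 0.533 to one of 1.04. Vil1 had 123 counts in RIAKI and 166 in sham and a CV of 31.3% in RIAKI and 30.5% in sham. In libraries thinned to the depth of the poorest one the Vil1 log2 fold change was −0.14 (adjusted p = 0.774), and without sham 3 it was −0.57 (adjusted p = 0.0517). Usp37 overlaps Vil1 by 49 bases on the other strand and had 108 counts in RIAKI and 105 in sham, 87.8% of the Vil1 count in RIAKI and 63.3% in sham. The ratio of Ezr to Vil1 was 4.33 to 10 in RIAKI and 1.59 to 4.35 in sham, a log2 difference of 1.51 with slightly overlapping groups (exact permutation test, 2-sided, p = 0.00433, 0.00649 adjusted over 6 ratios), and its adjusted p was 0.109 in the thinned libraries.

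The protocadherin genes of the tip links were both lower. Cdhr5 (ENSMUSG00000025497, chromosome 7 of GRCm38, 141269083 to 141276786, minus strand) had 2.21, 8.25 and 14.7 CPM as the lowest, median and highest values in RIAKI, against 15.1, 24.1 and 25.3 CPM in sham. RIAKI 1 came close to the lowest sham kidney, but the groups did not overlap. The means were 8.001 ± 4.04 CPM in RIAKI and 21.9 ± 4.40 CPM in sham (SD, n = 6 each), with a log2 fold change of −1.42 (SE 0.25, 95% interval −1.94 to −0.91, adjusted p = 3.84e-05, edgeR's quasi-likelihood test).

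Cdhr2 (ENSMUSG00000034918, chromosome 13 of GRCm38, 54701461 to 54736662, plus strand) was counted far less often, with 11 counts in RIAKI and 37 in sham. Its values were 1.22, 1.65, 0, 1.25, 1.55 and 0 CPM in RIAKI 1 to 6, against 3.17, 4.06, 3.75, 2.12, 4.27 and 1.97 CPM in sham 1 to 6. The ranges did not overlap as counted, but a count of 0 allows up to 2.51 CPM in RIAKI 3 and 1.66 CPM in RIAKI 6 (3 counts per library, counting error only), and the first of these limits lies inside the sham range. The log2 fold change was −1.65 (SE 0.51, 95% interval −2.76 to −0.66, adjusted p = 0.00912, edgeR's quasi-likelihood test). After thinning to the poorest library, the adjusted p of the Cdhr2 log2 fold change was 0.0753. Over all kidneys of a group, the summed counts of Cdhr2 came to 0.121 of those of Cdhr5 in RIAKI and 0.149 in sham. The ratio in single kidneys exists only for the 4 RIAKI kidneys with a Cdhr2 count, so its tests, here and against Myo7b, are not read.

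Myo7b (ENSMUSG00000024388, chromosome 18 of GRCm38, 31959234 to 32036961, minus strand), the motor of the tip complex, had 0.837, 1.77 and 4.96 CPM as the lowest, median and highest values in RIAKI, against 1.40, 2.24 and 3.17 CPM in sham. All 6 sham kidneys lay inside the RIAKI range. The log2 fold change was −0.10 (SE 0.46, 95% interval −1.04 to 0.84, adjusted p = 0.893, edgeR's quasi-likelihood test), so that folds from 0.485 to 1.79 were left within the interval at 23 counts in RIAKI and 25 in sham. The Myo7b log2 fold change was −0.54 without RIAKI 2, the kidney with the highest value, and turned to 0.014 without RIAKI 3, 0.058 without RIAKI 5 and 0.021 without sham 1, so no direction is given. Reads in the introns of Myo7b came to 69.6% of its exon count in RIAKI and 60% in sham, from 16 and 15 reads.

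Of the partners of these proteins, some were lower and others did not pass the test. Whether these partners changed by different amounts was not tested. In the tip complex, Ush1c, the gene of the scaffold harmonin, was lower (log2 fold change −0.96, SE 0.26). So was Calml4, a light chain of MYO7B (95.1 ± 24.9 CPM in RIAKI and 269 ± 36.7 CPM in sham, SD, n = 6 each, log2 fold change −1.50, SE 0.16). Anks4b, an adaptor of the same complex, had −0.18 (SE 0.26) and did not pass. Of the actin bundlers beside villin, Espn (−1.18, SE 0.17) and Pls1 (−0.97, SE 0.15) were lower. Eps8, which caps and bundles filaments, had −0.30 (SE 0.19) and did not pass. Of the other NHERF proteins, Pdzd3 was lower (−0.78, SE 0.22) and Slc9a3r2 had −0.37 (SE 0.24) and did not pass. Their 95% intervals, −1.25 to −0.33 and −0.87 to 0.12, overlapped. These genes were chosen with earlier results of the same kidneys known.

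**Figure D4:**
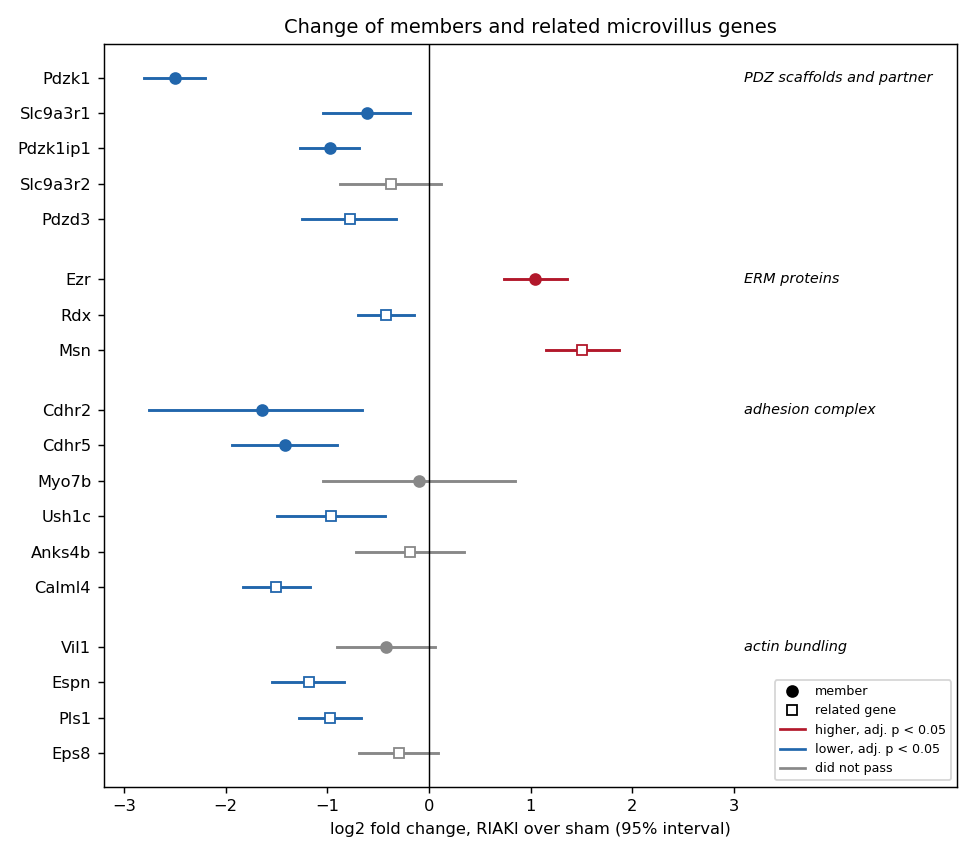
Log2 fold change of RIAKI over sham (x axis) with its 95% interval for the 8 scaffold genes (filled circles) and 10 related genes (open squares), grouped by role down the page. Red marks genes higher and blue genes lower at an adjusted p under 0.05 by edgeR's quasi-likelihood test, and grey those that did not pass. Ezr and Msn stand to the right of 0, and Pdzk1 lies furthest to the left at −2.50.

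Over the whole list of other microvillus genes, 23 of 25 were tested. Of these, 3 were higher, 10 lower and 10 did not pass, with a median of −0.35. Among all genes tested, 17.4% were higher and 18.8% lower, with a median of −0.01. Besides Msn, the higher genes were Cobl, an actin nucleator (log2 fold change 1.28, SE 0.20), and Rab11a, a GTPase of apical recycling (0.71, SE 0.14). Next to Calml4, the lower genes with the smallest p-values were Tmigd1, an adhesion protein (−1.33, SE 0.15), Myo6, a motor that moves toward the microvillus base (−1.21, SE 0.16), and Clic5, which binds the ERM proteins (−1.63, SE 0.22). With total counts as the only scaling, 6 rather than 10 genes of this list were lower.

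Most of the listed cargo of the PDZ scaffolds was lower. Of 14 transporters and receptors listed as partners of the PDZ scaffold, 10 were lower and 2 higher, with a median of −1.35. Among all genes tested, 18.8% were lower and 17.4% higher. The proximal tubule markers, with 15 of 16 lower, had a median of −2.01, so a fall was not particular to the partners. Slc5a8, a lactate and monocarboxylate transporter, fell most (8.39 ± 0.888 CPM in RIAKI and 61.5 ± 9.95 CPM in sham, SD, n = 6 each, log2 fold change −2.87, SE 0.17). Slc34a1, the sodium-phosphate cotransporter held by NHERF1 and PDZK1, had 92.4 ± 23.6 CPM in RIAKI and 400 ± 55.7 CPM in sham, and Slc15a2, a peptide transporter, and Pth1r, the parathyroid hormone receptor, were lower by log2 fold changes of −2.20 (SE 0.19) and −1.50 (SE 0.15). Slc5a2, the gene of SGLT2, which MAP17 activates, was lower too (−1.43, SE 0.16). The higher genes were counted rarely: Cftr, a chloride channel, had 4.42 ± 1.88 CPM in RIAKI and 1.08 ± 0.758 CPM in sham (log2 fold change 2.11, SE 0.49), and Scarb1, the HDL receptor that PDZK1 stabilises in mouse liver, 3.79 ± 1.08 CPM in RIAKI and 1.69 ± 1.12 CPM in sham (1.09, SE 0.45, adjusted p = 0.0498 by edgeR's quasi-likelihood test).

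Enzymes of the brush border membrane fell as well. Of 12 genes tested on the enzyme list, 11 were lower and 0 higher, with a median of −1.20. Among all genes tested, 18.8% were lower and 17.4% higher. The median of the proximal tubule markers was −2.01, so a fall was not particular to the enzymes either. The meprin subunits Mep1b (−3.03, SE 0.25) and Mep1a (−1.25, SE 0.15), the dipeptidase Dpep1 (−1.58, SE 0.18) and the aminopeptidase Anpep (−2.96, SE 0.42) had the smallest p-values. Anpep was counted rarely, with 1.30 ± 1.01 CPM in RIAKI and 10.3 ± 4.40 CPM in sham (SD, n = 6 each). Its lowest RIAKI value was 0. The listed gene that did not pass, Npl (−0.51, SE 0.26), encodes a cytosolic enzyme and not one of the membrane.

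Set beside the markers of the proximal tubule, Pdzk1 made up less of the signal in RIAKI than in sham kidneys, and Pdzk1ip1, Slc9a3r1, Vil1 and Ezr made up more. The 16 markers had a median log2 fold change of −2.01, and their summed level was 1093 ± 132 CPM in RIAKI and 4078 ± 214 CPM in sham (SD, n = 6 each). Relative to this sum, Pdzk1 was 0.663 times as high in RIAKI as in sham (log2 difference −0.59), and its groups did not overlap. The log2 difference was 0.91 for Pdzk1ip1, 1.38 for Slc9a3r1, 1.46 for Vil1 and 2.97 for Ezr, each with all RIAKI kidneys above all sham kidneys. It was 1.54 for Myo7b and 0.29 for Cdhr5, both with overlapping groups, and for Cdhr5 beside proximal tubule markers it ran from 0.017 without RIAKI 1 to 0.62 without RIAKI 6. For Cdhr2, with 2 RIAKI kidneys at 0, the log2 ratio of the mean shares over all kidneys was 0.15. Such shares carry no test and depend on the markers chosen, one of which, Slc6a19, did not pass the test (log2 fold change 0.14). The marker sum itself fell, so a gene of unchanged level also gains share. The median log2 fold change over all genes tested was −0.01, so a gain in share is not particular to the scaffold genes. Markers of the thick ascending limb (4 of 5), of the distal convoluted and connecting tubule (5 of 6) and of the collecting duct (5 of 8) were lower too and none of them higher, of 7 endothelial markers 1 was lower, and of 5 fibroblast markers 2 were higher and 1 lower. The part of these cell types in the scaffold genes was not tested.

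**Figure D5:**
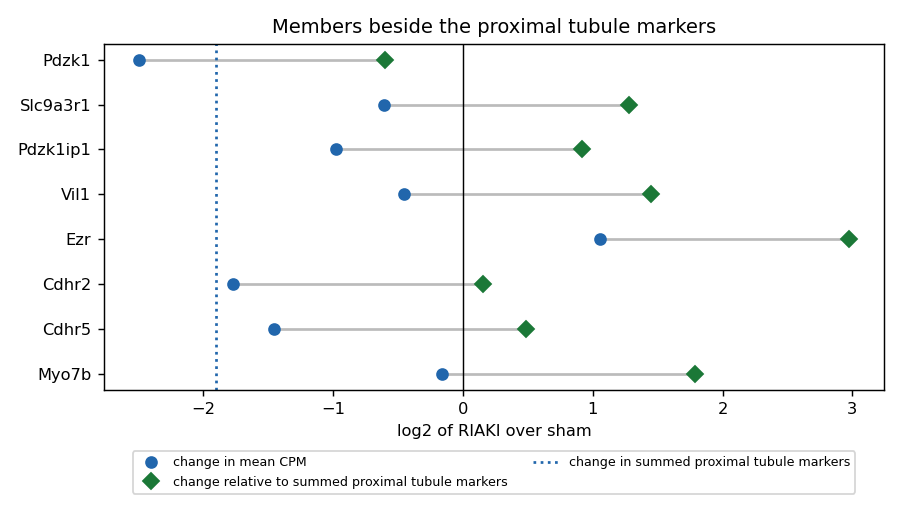
For each scaffold gene, the log2 ratio of mean CPM in RIAKI over sham (circles), and the log2 ratio of the mean shares after division by the summed CPM of the 16 proximal tubule markers in each library (diamonds, all 12 kidneys), on 1 x axis. The dotted line is the change of the summed markers. Pdzk1 is the gene left of 0 on both measures, at −0.60 relative to the markers, and the diamond of Cdhr2 lies close to 0 at 0.15.

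Genes whose log2 levels followed each scaffold gene most closely over the 12 libraries were picked among 3143 genes of at least 20 CPM on average, as a description that the difference between the groups enters. For Pdzk1 these included Abat and Dao, with Pearson r = 0.99 each. Pdzk1ip1 was most like Cltrn, Gstt2 and Fmo2 (r = 0.98 each), and Ezr most like Cebpd (r = 0.97), Nqo1 and Rgcc (r = 0.96 each). Slc9a3r1 was most like Hnrnpul1 (r = 0.96), Gpbp1l1 (r = 0.95) and Cat (r = 0.94). For the less counted genes the likeness was lower or rests on few counts: Cdhr2 with Tns1 (r = 0.95), Cdhr5 with Wnk1 (r = 0.94), Myo7b with Ubap2l (r = 0.87) and Vil1 with App (r = 0.79). Among the scaffold genes themselves, Pdzk1 and Pdzk1ip1 had r = 0.94 and Cdhr2 and Cdhr5 r = 0.87 over the 12 libraries. For deviations from the group means these were 0.54 and 0.62. The groups differed: Pdzk1 and Pdzk1ip1 had r = 0.78 in RIAKI and −0.23 in sham, and Cdhr2 and Cdhr5 had 0.55 in RIAKI and 0.92 in sham.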

How the data were processed

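RNA of 6 RIAKI and 6 sham kidneys was analysed, 1 library per kidney, grouped by the treatment label. The authors used the QIAseq UPX 3′ kit and a NextSeq sequencer, demultiplexed with bcl2fastq2, and trimmed, deduplicated and mapped reads to GRCm38 in CLC Genomics Workbench. The deposited values used here are whole-number counts of deduplicated reads over the exons of Ensembl genes, not normalized. Whether strand was used is not given in the sources used here.

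From these, genes with at least 10 summed counts were scaled by TMM and compared with edgeR 4.0.16 (quasi-likelihood test) in R 4.3.3, RIAKI over sham, with Benjamini-Hochberg adjustment over all 13536 genes. Ratios were tested by exact permutation over all 924 assignments (210 where 2 libraries lacked Cdhr2 counts). The script was tested on simulated data. Alternatives were the exact test of the study's methods, DESeq2 1.42.0, limma 3.58.1 voom, other scalings, filters and read classes, thinning to 518533 counts outside the mitochondrial genome, the replicate block and leaving out each library. Named genes of the lists were up to 4 called genes in each direction with the smallest p-values, and genes named beyond them for their role in the scaffold were chosen after their values were seen. The scaffold genes and the lists were chosen with earlier results of these data known. Some genes that the naming rule covers are not reported here.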

Additional observations from a re-analysis of the deposited data

Results flagged for a closer look

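Of 28 groups of scaffold gene levels and ratios examined, 4 held a kidney far from the rest of its group. The rule flags about 1 in 20 independent groups by chance. These groups are not independent, since the ratios reuse the levels, and some rest on few counts. No excess is therefore read from this number. RIAKI 5 had 61.8 CPM of Slc9a3r1, with 41.9 CPM in the next RIAKI kidney. Sham 3 had 377 CPM of Pdzk1ip1, with 316 CPM in the next sham kidney. RIAKI 2 had 4.96 CPM of Myo7b, with 2.04 CPM in the next RIAKI kidney. The log2 ratio of Cdhr2 to Cdhr5 was −3.58 in RIAKI 1 and −2.42 in the nearest of the other 3 RIAKI kidneys with a Cdhr2 count.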

How the results depend on the processing

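No log2 fold change of a scaffold gene that passed the test changed its direction under any alternative. The count of PDZ partners called higher, 2 in the report, was 1 with DESeq2, DESeq2 size factors, no filter, thinned libraries, total counts only, mitochondrial genes left out, a threshold of 0.01, libraries up to 50% mitochondrial ribosomal RNA (added after seeing the data) and the replicate block, 0 with at least 10 counts in 6 libraries, and 1 to 2 when single kidneys were left out. Scaffold genes called lower numbered 3 in thinned libraries rather than 5, and other microvillus genes called lower 6 with total counts only. The Slc9a3r1 log2 fold change lost its call with limma voom (−0.54), robust dispersion (−0.61), thinned libraries (−0.52), total counts only (−0.59) and a threshold of 0.01 (−0.61), and ran between −0.76 and −0.49 when single kidneys were left out. In thinned libraries the Cdhr2 log2 fold change (−1.66) and the Ezr/Vil1 ratio (0.96) lost theirs. Over all alternatives the adjusted p ran from 0.000826 to 0.0893 for Slc9a3r1, from 0.00203 to 0.0753 for Cdhr2 and from 0.00325 to 0.109 for Ezr/Vil1. The Myo7b/Cdhr2 ratio passed with a prior count of 2 (0.71) and ran between 0.71 and 1.44 when single kidneys were left out, passing without RIAKI 5, and the Cdhr2/Cdhr5 ratio between 0.026 and 0.45, passing without RIAKI 1. Both rest on the RIAKI kidneys with a Cdhr2 count and are not read. The causes were not tested beyond the fewer counts that thinning leaves by construction.

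Replicate numbers were not read as pairs. Correlations of same-numbered kidneys ran from −0.30 to 0.42, with 4 of 6 above 0.1, and 1 of 6 RIAKI kidneys was most like its own number. With sham 1 and 2, r was 0.30 to 0.47 for RIAKI 1 and 2 and −0.50 to −0.24 for RIAKI 3 and 6. For RIAKI 4 and 5 it was −0.12 to 0.07. The cause of this pattern was not tested. The replicate block left 5 scaffold genes lower and 1 higher. Depth limits Cdhr2 and Myo7b, with 48 counts each over all kidneys.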
